A study of Homo sapiens with 6 samples.

Results

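The peak lists of the PIK3CA E545K and PIK3CA H1047R knock-in cells were compared directly with each other, peak by peak. The E545K list held 89416 peaks and the H1047R list 106747, together 196163 of the 295073 peaks in the 3 lists of the series. Peaks of the 2 lists that shared 1 bp or more were counted as partners. The cells were MCF-10A, a non-tumorigenic human breast epithelial line, and open chromatin was mapped by ATAC-seq, which reads out where the enzyme Tn5 can cut and tag DNA. Each genotype was represented by 2 samples that the authors merged into 1 list, so no value per sample exists here, sequencing depth is unknown, and every difference below compares 1 list with another without a replicate check. The labels do not say whether the 2 samples came from separate cultures, nor how many clones stand behind each knock-in line. Both knock-in lines were kept without EGF in medium with 5% horse serum, cholera toxin at 100 ng/ml, hydrocortisone at 0.5 µg/ml and insulin at 10 µg/ml, and were moved for 24 h before collection to 1% stripped serum with 0.2 ng/ml EGF and the same insulin, hydrocortisone and cholera toxin. Parental cells with wild-type PIK3CA (WT), which serve below only as a further point of reference, differed in being kept with 20 ng/ml EGF before the same 24 h.

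PIK3CA encodes p110α, the catalytic subunit of class I PI3K, which makes the membrane lipid PIP3 and so recruits AKT. E545K lies in the helical domain, where it relieves the inhibitory contact with the regulatory subunit p85, and H1047R lies in the kinase domain, where it strengthens binding of the enzyme to membranes. Both are frequent in breast cancer. Active AKT keeps FOXO transcription factors out of the nucleus, and PI3K signalling meets the EGF receptor and MAPK pathway, whose early response genes include the AP-1 factors FOS and JUN.

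The sequences below carry the contrast that the peaks show, and each is read 5′ to 3′ on the plus strand of hg38. The first set comes from a fixed rule: the bases around the summits of the largest strong peaks that lacked a partner and of pairs. The pairs were those of largest area ratio whose higher peak was strong and whose summit value moved the same way. Of 12 such windows, 5 held any of the 20 consensus motifs searched on both strands and 7 held none. Of those 5, 3 are shown. Capitals mark the matches, which were CACCTG (ZEB) in CAVIN2, TGACNNNGC (NRF2) in GPC1, and the overlapping TGANTCA (AP-1), GGAATG (TEAD), AACAAT (SOX) and TGACNNNGC in HMGCS1. CAVIN2 is an E545K peak without a partner, GPC1 is an H1047R peak without a partner, and HMGCS1 is a pair that was higher in H1047R.
CAVIN2, chr2:191831167-191831267: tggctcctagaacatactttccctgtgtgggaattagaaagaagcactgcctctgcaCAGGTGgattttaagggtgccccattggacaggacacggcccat
GPC1, chr2:240320362-240320462: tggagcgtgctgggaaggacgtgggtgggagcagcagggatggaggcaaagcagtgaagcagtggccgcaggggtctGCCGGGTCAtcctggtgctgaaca
HMGCS1, chr5:43281994-43282094: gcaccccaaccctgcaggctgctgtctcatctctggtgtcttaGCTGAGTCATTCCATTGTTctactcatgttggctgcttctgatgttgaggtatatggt

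A second set, chosen after the motif counts were seen, shows 3 motifs that were more frequent in the pairs that moved than in the others, in the pairs of largest area ratio that hold the motif within 40 bp of the summit. In the pairs that were higher in E545K this is the glucocorticoid receptor element (GRE), shown for PDLIM5, CPPED1 and BOD1, and the TEAD site GGAATG, shown for METTL25, which has no WT peak. In the pairs that were higher in H1047R it is the NF-kappaB site, shown for FRYL, ZC3H12C and SDK1. Here too the higher peak had to be strong and the summit value had to move the same way. Capitals mark only that motif.
PDLIM5, chr4:94457730-94457810: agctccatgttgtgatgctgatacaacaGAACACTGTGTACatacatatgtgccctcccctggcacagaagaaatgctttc
CPPED1, chr16:12801587-12801667: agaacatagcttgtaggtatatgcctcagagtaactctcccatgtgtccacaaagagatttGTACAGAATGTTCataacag
BOD1, chr5:173486427-173486507: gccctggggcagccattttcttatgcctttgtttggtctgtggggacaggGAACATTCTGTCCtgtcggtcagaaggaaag
METTL25, chr12:82415527-82415607: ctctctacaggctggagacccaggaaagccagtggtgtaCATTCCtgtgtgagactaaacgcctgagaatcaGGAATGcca
FRYL, chr4:48728997-48729077: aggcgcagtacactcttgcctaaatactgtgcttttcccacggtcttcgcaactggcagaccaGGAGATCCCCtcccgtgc
ZC3H12C, chr11:110087138-110087218: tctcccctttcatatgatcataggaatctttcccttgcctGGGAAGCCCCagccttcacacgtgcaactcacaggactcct
SDK1, chr7:3862184-3862264: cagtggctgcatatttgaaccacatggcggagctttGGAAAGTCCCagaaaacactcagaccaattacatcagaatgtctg
The GRE pair near PDLIM5, in an intron, had an area of 1057 in E545K, 210.2 in H1047R and 766.5 in WT. Near FRYL the NF-kappaB pair, also in an intron, had an area of 311.9 in E545K, 2179 in H1047R and 952.2 in WT. In both, WT lay between the mutants, which a choice of pairs that differ between the mutants favours.

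Both lists carried basal mammary epithelial markers. Of 11 basal mammary epithelial markers, 10 had a promoter peak in both lists, among them KRT5, KRT14, KRT17, ITGA6 and ITGB4, and TP63 had none at its canonical start in either. Of 9 luminal markers, 7 had a promoter peak in both lists, and KRT19 and PGR had none in either. Of 6 immune markers 2 had a promoter peak in E545K and 1 in H1047R, of 4 neural markers 0 and 1, and of 5 endothelial markers 1 and 1; CD14 and KDR had one in both lists. Promoters of PTPRC, CD3E and ITGAM (immune), of GFAP, RBFOX3 and SOX10 (neural) and of CDH5, PECAM1, TEK and VWF (endothelial) had no peak in either mutant list. At the start of PIK3CA itself (ENSG00000121879.6, plus strand of chromosome 3, 179148114 to 179240093) the summit value was 8.20 in E545K, 8.41 in H1047R and 8.86 in WT. Areas as deposited sum the significance curve from which a peak was called, so they grow with width as well as with height. The summit value is the -log10 p at the highest point. The smallest area in each list was 200. A place without a peak therefore had no call of that area or more, and may still hold signal. The E545K peaks were the widest, with a median of 539 bp against 466 bp for H1047R and WT, and 5.41% of them exceeded 2000 bp against 3.91% and 3.90%.

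Most of each list was shared. Of the E545K peaks, 8170 lacked an H1047R partner (9.14%), and of the H1047R peaks, 25237 lacked an E545K partner (23.6%). The peaks without a partner were mainly weak ones. With the E545K list cut by area into 10 equal groups, 30.7% of the group of smallest areas had no partner, and 0.15% of the group of largest areas. The same shares in the H1047R list were 74.0% and 0.094%. The longer list alone shifts these counts: with both lists reduced to the 89416 peaks of largest area, 13076 E545K and 13196 H1047R peaks lacked a partner. The overlap rule had little influence at its edge, since 11.4% of the unpartnered E545K peaks and 7.45% of the unpartnered H1047R peaks lay within 500 bp of a peak of the other list, and asking for an overlap of 50% of the shorter peak gave 8235 and 25282.

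**Figure D1:**
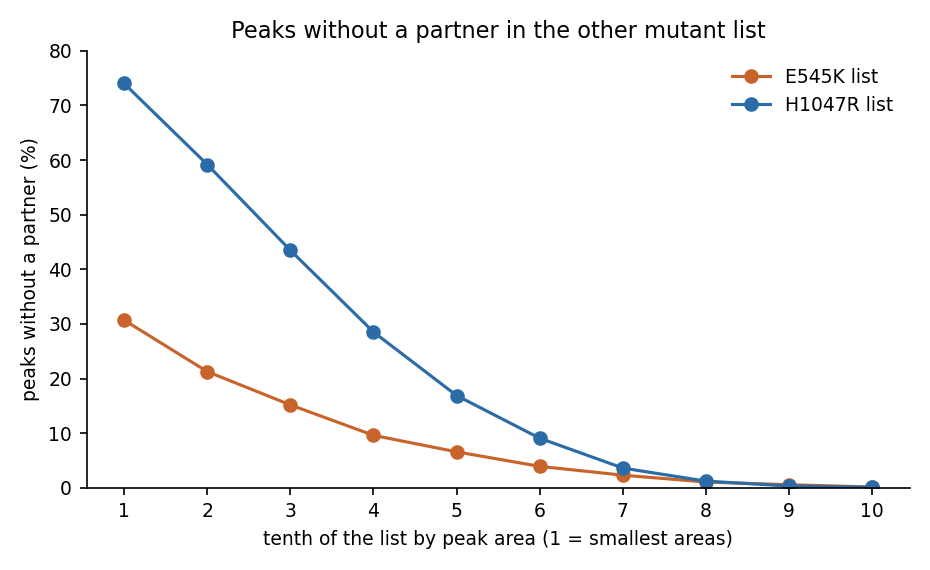
Share of peaks without a partner in the other mutant list (y axis, percent) for 10 equal groups of a list ranked by peak area (x axis, smallest areas first), with E545K in orange and H1047R in blue. Both curves fall from left to right, from 30.7% to 0.15% in E545K and from 74.0% to 0.094% in H1047R.

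A peak was called strong when it stood in the upper 50% of its list by area and also by summit value, which keeps out wide, low peaks. Only 161 of 40680 strong E545K peaks (0.396%, Wilson 95% interval 0.34% to 0.46%) lacked an H1047R partner, and 869 of 49087 strong H1047R peaks (1.77%, interval 1.66% to 1.89%) lacked an E545K partner. The intervals cover counting error only. The excess for H1047R depended on the length of the lists: 302 and 324 strong peaks lacked a partner once both lists had the same length. Many of these peaks had a counterpart in WT, 94 of 161 for E545K (58.4%) and 552 of 869 for H1047R (63.5%), against 98.9% and 98.8% of the strong peaks that had a partner. They were rarely at promoters, which held 7.45% of the unpartnered strong E545K peaks and 2.53% of those of H1047R, against 24.4% and 21.1% of partnered strong peaks. More of the E545K ones were intergenic (54.0%, interval 46.3% to 61.6%) and more of the H1047R ones intronic (47.9%, interval 44.6% to 51.2%), where partnered strong peaks had 36.5% and 36.7%.

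The largest strong E545K peak without a partner, 3949 bp wide (chromosome 2, 191829959 to 191833907), was intergenic near CAVIN2, which encodes a coat protein of caveolae, and had an area of 6472, a summit value of 4.86 and a WT counterpart of 4123. A pair of peaks in introns of DST, which encodes the cytoskeletal linker dystonin, had areas of 4147 and 2943 in E545K and 7012 and 3940 in WT. Near ETS2, an ETS family transcription factor, the E545K peak had an area of 3896 and the WT peak 5108. Others were near PRDM9, at its promoter, with 2925 in E545K and 2154 in WT, near NABP1 with 2622 and 1069 (the larger of 2 WT peaks), and 344500 bp from the start of SULF1, the nearest gene, with 2593 and 1434. Each of these peaks had a WT peak, so at these places the H1047R list was the one without a call.

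Of the 8 largest strong H1047R peaks without a partner, 6 had a WT peak, and in ITGB1, GPC1, ATP2B4 and CUX1 its area was far below that of H1047R. The first, 10107 bp wide, covered the start and first part of TRAF3IP3, an adaptor that binds TRAF3 (chromosome 1, 209754180 to 209764286), with an area of 13319 and a summit value of 4.40, and had no WT peak. A pair of peaks in introns of ITGB1, the β1 integrin chain (chromosome 10, 32889570 to 32892903 and 32893035 to 32896138), had areas of 4583 and 3165 in H1047R and 289.5 and 238.6 in WT. The nearest start to the fourth was that of GPC1, a cell surface heparan sulfate proteoglycan, 115470 bp away, and the areas were 3131 in H1047R and 408.9 in WT. Near ATP2B4, a plasma membrane calcium pump, they were 3058 and 377.7, and near CUX1, a homeobox factor, 2819 and 503.1. The nearest start to the seventh was that of INHBA, 585663 bp away, where WT reached 2680 against 2918 in H1047R. The peak given to UQCRFS1 lay 1353204 bp from that gene and had no WT peak.

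Single genes rarely collected several such peaks. Among H1047R peaks, 30 genes had a net of at least 2 strong unpartnered peaks within 100 kb, and among E545K peaks 2 genes had. VAV3, an exchange factor for small GTPases that acts downstream of receptor tyrosine kinases and PI3K, had 4, with 6 peaks in E545K, 17 in H1047R and 17 in WT. ZNF680 and SIAH3 had 3 each. PDYN, which encodes prodynorphin, had no peak in E545K, 7 in H1047R and 5 in WT. RHOB, SLA, KIAA1217 and ITGB1 had 2 each, though the summed area over all peaks of ITGB1 was 54813 in E545K and 42600 in H1047R. KCNA5, a potassium channel gene, and THSD4 were the only ones on the E545K side, with 2 each. KCNA5 had 6 peaks in E545K, 3 in H1047R and 7 in WT. These nets depend on the distance allowed: within 50 kb of a start VAV3 kept 2, SIAH3, KIAA1217 and KCNA5 1 each, and ITGB1 0 (1 with strength by area alone).

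Where each peak had exactly 1 partner, the lists could be compared value by value. In the 77077 one-to-one pairs, the H1047R area exceeded that of E545K at the median (log2 ratio 0.27), the width nearly equal (median log2 ratio 0.03) and the summit value higher by 0.44. The summit was higher in H1047R in 59521 pairs (77.2%). Since depth is unknown, the ratios below are read relative to the median ratio. Across pairs, Pearson's r was 0.91 for log2 area and 0.92 for summit value, as a description over peaks that share libraries and sequence. Past 2-fold of the median ratio lay 2643 pairs with a higher area in E545K (3.43%) and 3567 with a higher area in H1047R (4.63%). Without centring the counts were 1386 and 7171, so the balance between the directions rests on it. Of the 4 kinds of location promoter pairs moved least: 0.95% of them were higher in E545K and 0.81% higher in H1047R.

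**Figure D2:**
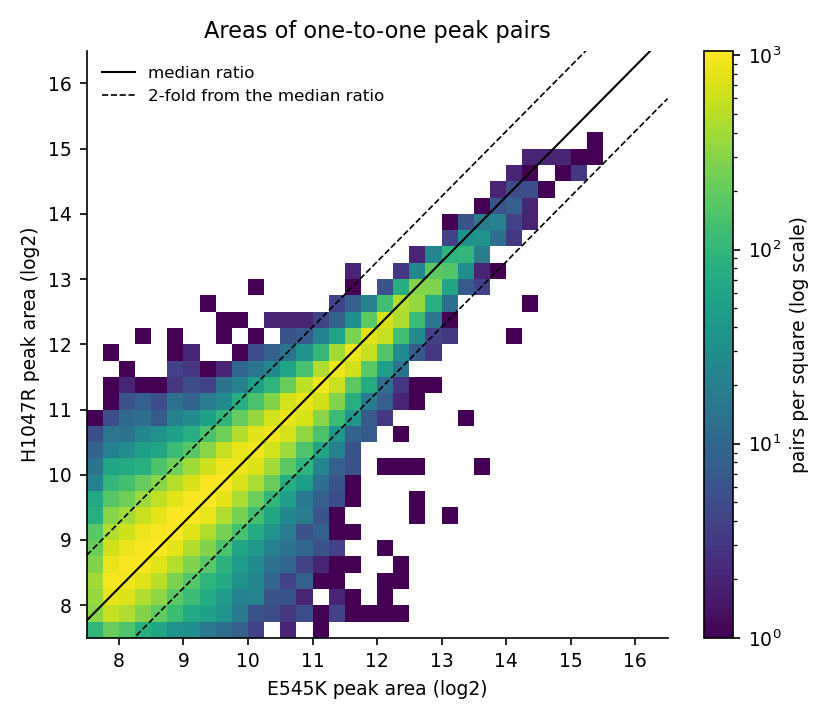
Number of one-to-one pairs (colour, log scale) by E545K peak area (x axis, log2) and H1047R peak area (y axis, log2). The solid line is the median ratio and the dashed lines mark 2-fold on either side of it, beyond which 3.43% of pairs lie below and 4.63% above.

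Width and area per bp both moved with the area, to a similar degree in the 2 directions. Relative to the median pair, the median log2 ratios were -0.66 for width and -0.71 for area per bp in pairs higher in E545K. They were 0.57 and 0.75 in pairs higher in H1047R. The widths and summit differences that follow are not centred, and the median summit difference over all pairs was 0.44. Pairs that were higher in E545K had median widths of 703 bp in E545K and 427 bp in H1047R, with a summit lower in H1047R by a median of -0.94, and 9.35% of their E545K peaks were wider than 2000 bp. Pairs that were higher in H1047R had median widths of 367 bp and 605 bp, and the summit was higher in H1047R in all 3567 of them, by a median of 1.66. The lower peaks were small: the median H1047R area was 366.7 in the first set, the median E545K area 296.3 in the second. No listed area was below 200, which limits the ratios. With the mean height (area per bp) in place of the area, 926 and 1728 pairs passed 2-fold. WT lay between the mutants in both sets, which a choice of pairs that differ between the mutants favours. Where a single WT peak was overlapped, its log2 area ratio was -0.35 to E545K and 0.73 to H1047R in the first set. In the second set the ratios were 0.89 and -0.66. These ratios are not centred, and in the pairs within 2-fold they were 0.23 and -0.03.

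Pairs were named only where the higher peak was strong and the summit value moved the same way. Those most strongly higher in E545K turned on the CAV1 locus. CAV1 encodes caveolin-1, the main structural protein of caveolae, and 3 of the first 8 pairs lay in its introns on chromosome 7. The first had an area of 5219 over 3281 bp in E545K, 231.8 over 270 bp in H1047R and 3675 in WT, 27.1-fold beyond the median ratio. The second had 5759, 334.3 and 1073, and the third 4463, 273 and 2638, each in the order E545K, H1047R and WT. The WT value is the largest overlapping WT peak. The second E545K peak overlapped 4 WT peaks, so 1073 is only part of the WT signal there. In all 3 the H1047R list kept only a short peak inside the wide E545K one. These H1047R areas lie near the smallest area listed, 200, which limits how the folds can be read. Near FOSL2, which encodes the AP-1 subunit FRA2, the areas were 4797, 221.7 and 7248, where the WT peak also covers a neighbouring E545K peak of 5263. In ITGB6, the epithelial integrin chain that activates latent TGF-β, they were 3579, 216.7 and 847.7. In EZR, the membrane and actin linker ezrin, they were 8843, 682.9 and 1896, near PRKCD 3436, 299.4 and 614.2, and near TXNIP 12556, 1142 and 5091. For EZR and PRKCD the WT value is the largest of 3 and of 2 WT peaks.

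TXNIP was the clearest of these genes. It encodes thioredoxin-interacting protein, which limits glucose uptake, and it is a known FOXO target. Of its 6 one-to-one pairs 5 were higher in E545K. Summed over its peaks, the area was 33514 in E545K (7 peaks), 9891 in H1047R (6 peaks) and 20034 in WT (7 peaks), 4.19-fold beyond the median ratio of genes. The mean height also fell on the E545K side, with a centred log2 ratio of -0.67, so width was not the only part of the difference. At the promoter the area was 9153 in E545K and 4101 in H1047R with summit values of 10.8 and 9.59. TXNIP was singled out by its sum after values were seen.

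The pairs most strongly higher in H1047R, chosen in the same way, were narrower and higher. Their summit value was higher in H1047R by that choice. Several of their E545K areas lay near the smallest area listed, 200. In an intron of TSPAN9, a tetraspanin, the area was 253.6 in E545K, 3892 in H1047R and 441 in WT, 12.8-fold beyond the median ratio, and the summit value rose from 2.66 to 6.87. Near HMGCS1, the sterol-regulated HMG-CoA synthase of cholesterol synthesis, it was 348.7, 4466 and 1390. In CRISPLD2, which encodes a secreted protein, it was 238.8, 2574 and 889.7. In NFATC2, a calcium-regulated transcription factor, it was 295.7, 3044 and 276.3, and in ADTRP 621.6, 6377 and 1186. Pairs in SCAMP4 and NDUFAF6 reached 2669 and 2401 in H1047R and had no WT peak, and the pair in RPSA2 had 254.6 in E545K, 2406 in H1047R and 1833 in WT.

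**Figure D3:**
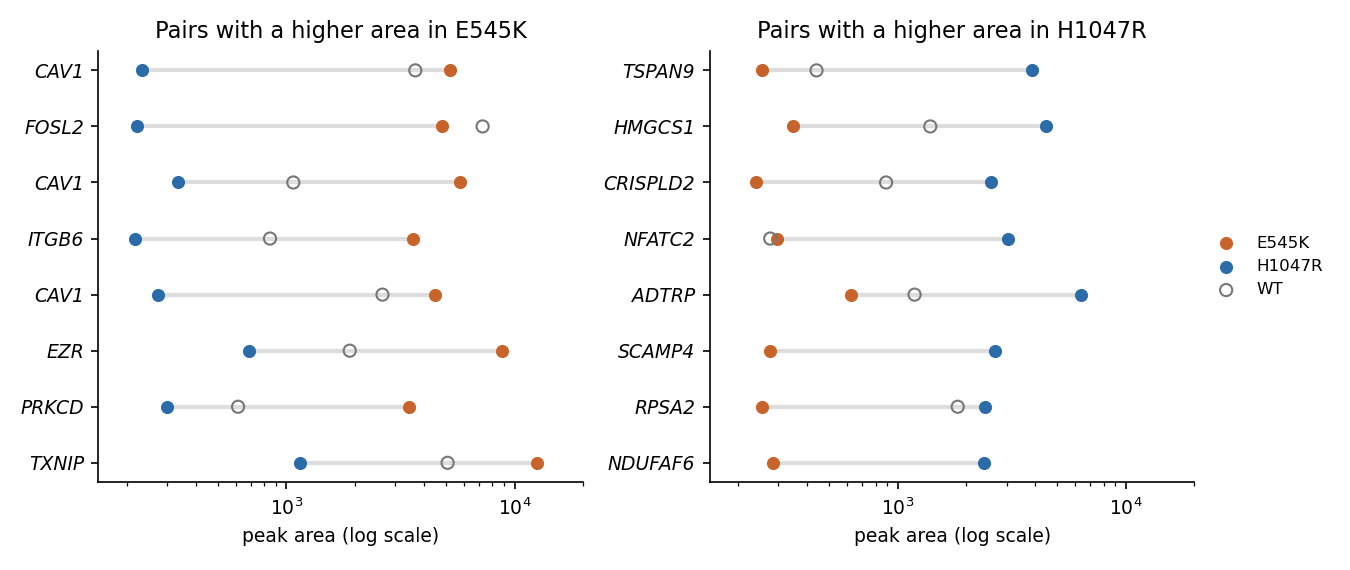
Peak area (x axis, log scale) in E545K (orange), H1047R (blue) and WT (open grey, largest overlapping peak, not drawn where WT has none) for the 8 pairs of largest centred area ratio in each direction, labelled by nearest gene. Pairs were taken only where the higher peak was strong and the summit value moved the same way. On the left WT exceeds H1047R in each pair but stays below E545K except near FOSL2, where the WT peak covers 2 E545K peaks; on the right WT lies below H1047R in each pair that has a WT peak.

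Wide peaks joined what the other list held as several. In E545K 1507 peaks (1.69%) covered at least 2 H1047R peaks, and in H1047R 1346 peaks (1.26%) covered at least 2 E545K peaks. The E545K peak that spanned most, 27722 bp at GPRC5A, a retinoic acid-induced receptor gene, covered 7 H1047R peaks, with an area of 50096 against 13600 summed. At TRIM11 an E545K peak also covered 7, with 13392 against 7982, and at ITPKC one covered 6, with 55265 against 52178. In the other direction an H1047R peak of 26257 bp at the far end of EZR from its start covered 8 E545K peaks, with 49800 against 6237. At SPC24 one covered 7, with 28720 against 14115, and near C1orf74 one covered 6, with 95436 against 61489. Summit values differed by far less, for example 6.69 and 6.08 at EZR. EZR therefore held both kinds: a pair higher in E545K in its introns and a domain wider in H1047R at its other end.

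Sums per gene put the same places in view. Of 8574 genes with at least 3 peaks in each list, 424 had a summed area past 1.5-fold of the median ratio in H1047R (4.95%) and 369 in E545K (4.3%). On the E545K side, with genes named after their sums were seen, stood CCN2, the YAP target connective tissue growth factor, with 25295 in E545K, 8523 in H1047R and 22575 in WT, CAV1 with 50992, 20739 and 42127, and TPM4, a tropomyosin, with 52677, 16852 and 43169. In the sums of CAV1 and TPM4 the difference lay in width, 37654 bp against 12616 bp and 35937 bp against 9708 bp. Their centred log2 ratios of mean height were 0.11 and 0.08, whereas in CCN2 the height was also lower in H1047R (-0.85). A mean height over a whole gene does not give the height of each peak. In the 3 CAV1 pairs above the summit was also lower in H1047R, with differences of -1.43, -1.06 and -2.34. FLT4 and ADGRB1 were larger still in ratio, but there E545K was wide and low: ADGRB1 covered 73782 bp in E545K and 6586 bp in H1047R, and its mean height had a centred log2 ratio of 0.88, higher in H1047R. On the H1047R side stood PLA2R1, the M-type phospholipase A2 receptor, with 4765, 17561 and 8141 (5217 bp against 18763 bp, with a mean height ratio of -0.13, so again one of width), CHRDL2 with 3400, 11350 and 5305, GREM1, a secreted BMP antagonist, with 2321, 7384 and 3683, and SORCS2 with 9005, 25721 and 6340. CRISPLD2 and SORCS2 had 5 changed pairs each, of 11 and 12, all higher in H1047R.

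Promoters present in 1 mutant list only were few. Among the promoters of 19111 protein-coding genes, 12672 held a peak in both lists, 258 in E545K only (1.35%), 345 in H1047R only (1.81%) and 5836 in neither. At 51 of the 258 and 18 of the 345 the peak overlapped a peak of the other list outside the promoter window. A strong peak without a partner stood at 15 and 24 of them. Once both lists had the same length, 337 and 216 were found, so the order of the directions turned with list length. The largest on the E545K side were at PRDM9, a meiotic histone methyltransferase gene, with an area of 2925, PLCH2 with 2293, CCND2, which encodes cyclin D2, with 1651 and a WT area of 1797 (the window is shared with ENSG00000285901), LYPD2 with 1583 and SAP25 with 1474. PLCH2, LYPD2 and SAP25 had summit values of 2.28 to 2.93 and were not strong. The largest on the H1047R side were TRAF3IP3 with 13319, IL1RL2, a receptor for IL-36, with 2348 and 788.9 in WT, BRSK2 with 2255 and 2407 in WT, CCL20, a chemokine and NF-kappaB target, with 1423 and 306.7 in WT, S100A7, psoriasin, with 1384, and RSPO2, a WNT agonist, with 1265. S100A7 and RSPO2 had no WT peak there.

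Most fixed gene lists had their promoters open in both mutants, and the early response genes of EGF and MAPK signalling differed in degree. All 31 had a promoter peak in both lists. Relative to the median promoter, the area was lower in H1047R at 25 of them, with a median log2 ratio of -0.45. The largest differences were at FOSB (33601 in E545K, 4656 in H1047R and 42347 in WT), JUND (27275, 12473 and 31386) and ATF3 (27002, 13704 and 24524). FOS had 35583, 24328 and 38663, EGR1, a zinc finger factor, 43377, 30181 and 50715, and JUN 17793, 13881 and 17239. At these 6 promoters H1047R was below both E545K and WT. They were picked from the list after their values were seen.

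Part of the gap at FOSB came with width, 10433 bp in E545K and 2580 bp in H1047R. Summed over the whole merged region, FOSB had 36877 in E545K and 17918 in H1047R (log2 ratio -1.24), and the median of the list was -0.38, with 25 of 31 genes still below the median promoter. Summit values were higher in H1047R at 17 of the 31 and lower at 14, and their median difference of 0.05 was below that of all promoters, 0.48. Large promoters as a whole leaned the same way, since the 421 with an E545K area of 10000 or more had a median log2 ratio of -0.23, or -0.22 over merged regions. The 6 early response promoters above the median promoter were SPRED1, ETV5, SPRY4, DUSP6, ETV4 and SPRY1, which encode feedback inhibitors and ETS factors induced by ERK. DUSP6, a phosphatase of ERK, had 7867 in E545K, 11400 in H1047R and 9446 in WT, ETV4 had 2330, 3845 and 2426, and SPRY4 4051, 5604 and 9057. This split within the list was seen after its values.

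**Figure D4:**
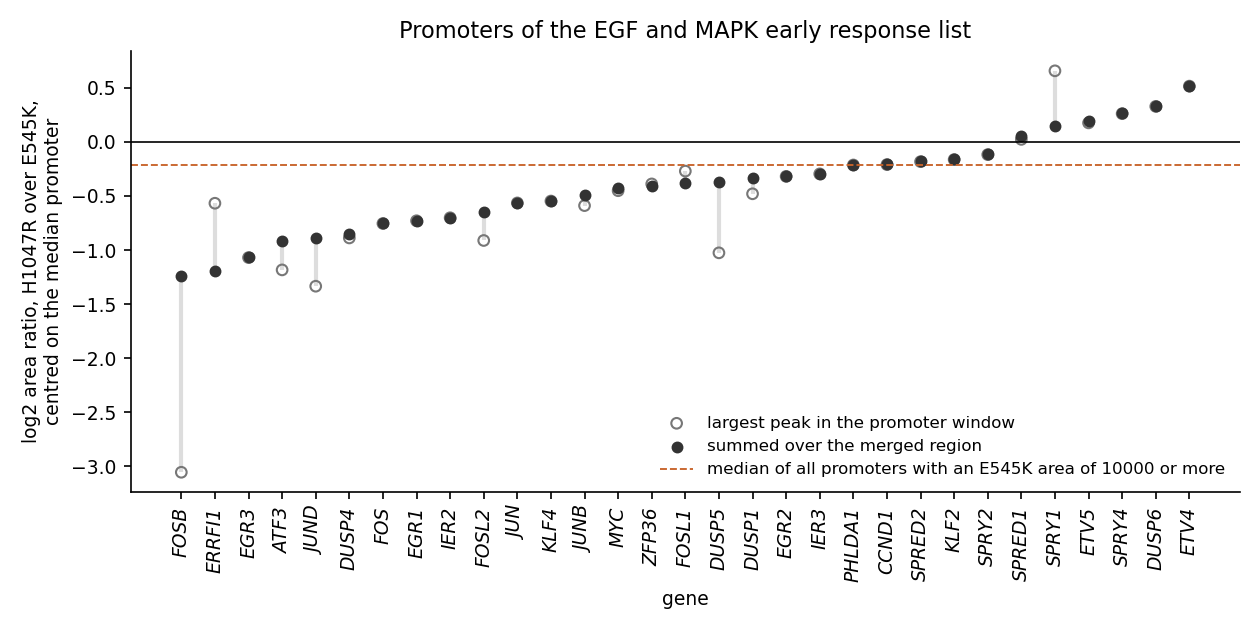
Centred log2 area ratio of H1047R over E545K (y axis) at the promoters of the 31 early response genes (x axis), from the largest peak in the promoter window (open circles) and summed over the merged region (filled). Most genes lie below 0, the median promoter, and SPRED1, SPRY1, ETV5, SPRY4, DUSP6 and ETV4 lie above it; the dashed line, at -0.22, is the median of promoters with a large E545K area.

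The PI3K-AKT-mTOR list showed no such lean. Of its 35 genes 30 had a promoter peak in both lists and none in 1 list only, with a median centred log2 ratio of -0.01. Of its 137 pairs 4 were higher in E545K (2.92%) and 5 in H1047R (3.65%), beside 3.14% and 4.53% of all pairs given to genes. Among its H1047R peaks, a strong one without a partner lay near GAB2, a docking adaptor for PI3K (area 772.5). Of 193 pairs at FOXO factors and targets, 12 were higher in E545K (6.22%) and 9 in H1047R (4.66%), and 5 of the former were those of TXNIP. The ERBB receptors and ligands had 11 of 108 pairs higher in H1047R (10.2%) and 6 in E545K (5.56%), and EGFR itself had a strong intronic H1047R peak without a partner (area 860.5).

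Promoters of basal and myoepithelial genes leaned to E545K, as did those of most lists. Of 129 pairs 14 were higher in E545K (10.9%, beside 3.14% over all genes) and 9 in H1047R (6.98%, beside 4.53%). Both shares exceeded those over all genes. Of 20 promoters with a peak in both lists 16 lay below the median promoter, with a median log2 ratio of -0.42, or -0.34 over merged regions. LAMB3, the β3 chain of laminin-332, had 34144 in E545K, 12092 in H1047R and 13720 in WT, and over the merged region 34144, 20890 and 28217. ITGB4, which anchors hemidesmosomes to laminin-332, had 9688, 4859 and 11925, and over the region 9688, 7591 and 11925. KRT15, a basal keratin, had 27585, 4320 and 3564, and its region 27585, 10346 and 4494. KRT5 did not lean, with 42938 in E545K and 49717 in H1047R. KRT16 lay under the same wide E545K peak as KRT17, so its ratio is not its own. YAP and TEAD targets had 10 of 155 pairs higher in E545K (6.45%, beside 3.14%) and 5 in H1047R (3.23%, beside 4.53%), with a promoter median of -0.25. Luminal promoters had a median of -0.17 (12 of 17 below the median promoter) and cell junctions -0.22 (19 of 24). Integrins and matrix had -0.23 (20 of 29), and TGF-beta and WNT -0.20 (30 of 36). The cell cycle, lipid synthesis, HOX and immune marker lists had medians above the median promoter. Housekeeping promoters had a median of -0.01 over 28 genes.

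In the NF-kappaB and inflammation list 4 of 128 strong H1047R peaks lacked a partner (3.13%, against 1.72% over all genes), and 0 of 107 strong E545K peaks did (against 0.297%). Counts this small do not set the list apart from the background. The 4 lay at the promoter of CCL20 (1423), 3031 bp from the start of TNF (1149), near NFKB2 (1014) and near IL1B (848.8), each with a WT counterpart. TNF had no peak in E545K. The list's promoters as a whole did not lean, with a median of -0.06 over 23 genes. Markers of immune cells, of which 4 of 26 had a promoter peak in both lists, had 7 of 60 pairs higher in H1047R (11.7%) and 1 in E545K (1.67%). CD2 had 4 peaks in E545K and 10 in H1047R. The part of other cell types in these values was not tested. Promoters of PTPRC and CD3E held no peak. p53 targets had 11 of 110 pairs higher in H1047R (10%, beside 4.53% over all genes) and 4 in E545K (3.64%, beside 3.14%). In the integrin and matrix list 20 of 288 pairs were higher in each direction (6.94%).

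Motif shares at the summits were counted for each direction. Strong distal peaks were searched up to 100 bp to either side of the summit, and the pairs that moved were set beside the pairs of the same list that stayed within 2-fold. Only the peak of the list where the area was higher had to be strong. In the pairs that moved, its summit value also had to be the higher one. Over all places, and without the summit condition, both peaks were strong in 396 pairs higher in E545K and 191 higher in H1047R. GRE, the element shown above for PDLIM5, was present in 47 of 1341 pairs that were higher in E545K (3.50%, Wilson 95% interval 2.65% to 4.63%) against 1.08% of the others. In pairs that were higher in H1047R it was present in 0.43% against 0.93%. TEAD sites were in 31.4% of the pairs higher in E545K (interval 29.0% to 33.9%) against 19.8%, and GATA sites (AGATAA) in 11.9% against 7.42%. AP-1 sites were fewer there, 22.7% against 41.9%. Hydrocortisone, a ligand of the glucocorticoid receptor, was in the medium of all groups at the same dose.

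NF-kappaB sites went the other way. They were present in 211 of 2547 pairs that were higher in H1047R (8.28%, interval 7.28% to 9.42%) against 3.25%, and in 14 of 1341 pairs that were higher in E545K (1.04%) against 3.03%. CEBP sites (TTGCNNAA) were in 19.0% of the pairs higher in H1047R against 14.8%, AP-1 sites in 49.8% against 45.5%, and TEAD sites in 15.3% against 18.3%. FOXO sites (TGTTTAC) did not stand apart, with 4.33% against 3.96% in the pairs higher in E545K and 4.32% against 4.12% in those higher in H1047R. A match of these letters is a description of the sequence and does not show that the factor was bound.

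Peaks without a partner are not among the pairs and were counted separately. In the 847 strong distal H1047R peaks without a partner NF-kappaB sites were in 8.62% (interval 6.91% to 10.7%) against 3.65% of partnered ones, and CEBP sites in 19.1% against 14.9%. In the 149 strong distal E545K peaks without a partner GRE was in 4.70% (7 peaks, interval 2.29% to 9.38%) against 1.2%, GATA in 13.4% against 7.53% and AP-1 in 17.4% against 40.6%. TEAD was not raised there, 18.1% against 20.2%. With strength judged by area alone, GRE was in 1.44% of 695 such E545K peaks against 1.18%, and GATA in 6.47% against 7.68%, so neither stood apart. Over whole peaks NF-kappaB was in 15.1% of the unpartnered H1047R peaks (interval 12.9% to 17.7%) against 13.1%. In the pairs, whole peaks were also searched, an alternative chosen after seeing the data. For pairs higher in H1047R the NF-kappaB share was 17.4% against 11.96%. Their CEBP share was 38.4% (interval 36.6% to 40.3%) against 36.9%, so CEBP did not stand apart over whole peaks. For pairs higher in E545K the GRE share was 6.64% against 2.62%. Median GC content near the summit was 46.8% in the pairs higher in E545K against 49.8%, and 48.8% against 49.8% in those higher in H1047R. The part of GC content and of peak width in these shares was not tested.

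**Figure D5:**
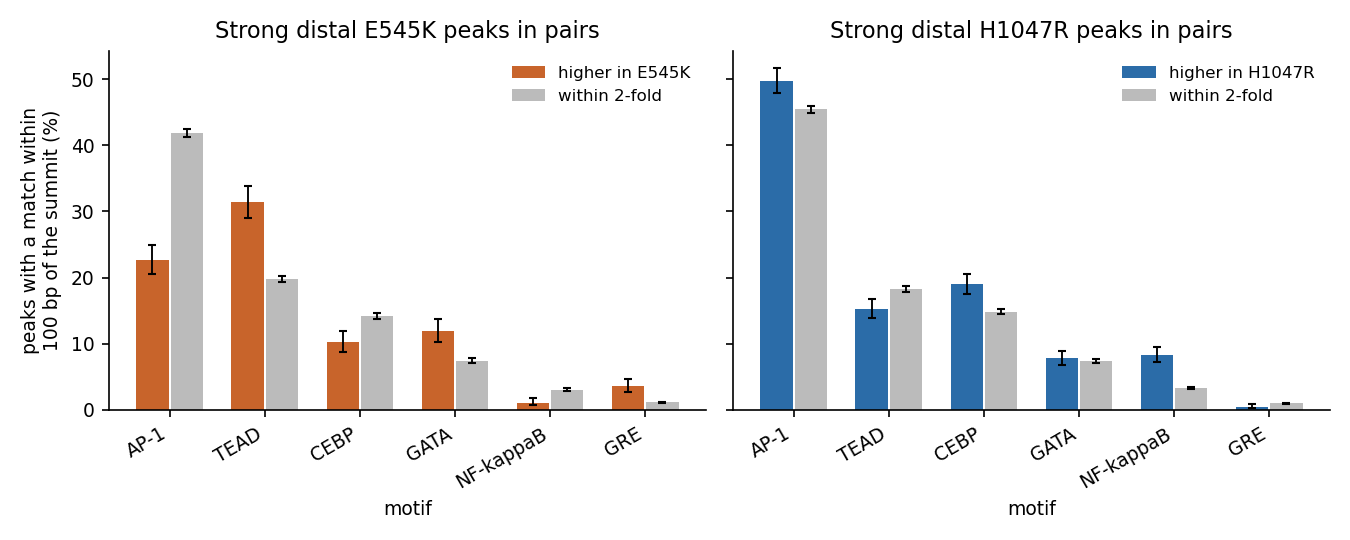
Share of strong distal peaks with a motif match within 100 bp of the summit (y axis, percent) for 6 motifs (x axis). E545K is on the left and H1047R on the right. Coloured bars are pairs past 2-fold of the median ratio whose summit value moved the same way, and grey bars are pairs within 2-fold. Bars carry Wilson 95% intervals for counting error. GRE and TEAD are higher in the orange bars than in the grey ones, and NF-kappaB is higher in the blue bars.

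In the one-to-one pairs the shift between the mutants was spread over the genome. Peaks without a partner and peaks that span several are not part of these medians. In 547 windows of 5 Mb with at least 20 pairs, the median centred log2 ratio ran from -0.40 (chromosome 6, 90 to 95 Mb) to 0.28 (chromosome 7, 40 to 45 Mb). On chromosome 8 from 140 Mb, where the wide, low E545K sums of ADGRB1 and ARC lay, the median of 297 pairs was -0.18, and on chromosome 5 up to 45 Mb that of 874 pairs was 0.01. C8orf90, PTP4A3 and MAFA, also among the genes of largest summed ratio toward E545K, lay in the same part of chromosome 8. Of all E545K peaks on chromosome 8, 14.5% lacked an H1047R partner, the highest share of any chromosome, against 9.14% over all. For H1047R peaks the shares were 24.1% and 23.6%.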

How the data were processed

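ATAC-seq was done on 2 samples per genotype, and the authors deposited 1 merged peak list per genotype. Per the submitters' processing notes, Trim Galore 0.4.0, cutadapt, FastQC, SAMtools and Genrich 0.6.1 were used with the hg38 build, and for alignment no tool is named: not given in the sources used here. Per the deposited files, each peak carries an area (a signal summed under the significance curve) and a summit value (the deposited -log10 p). Depth is not given. Both values are the authors' and served only to describe and rank peaks.

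Overlaps, pairs and gene assignment (GENCODE 44, promoters 1 kb on either side of a start, nearest start within 100 kb) were computed with Python 3.11.15, numpy 2.4.6 and pandas 2.3.3. Overlap counts were checked with bedtools 2.31.1, and the code was tested on simulated data. Promoter sums used regions merged over the 3 lists. Ratios were centred on their median. No test over samples was possible, and intervals are Wilson 95% intervals.

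The comparison, gene lists and motifs were chosen with earlier results of these data known. Genes were named by a rule: per direction the 8 largest strong unpartnered peaks, the 8 genes with the highest net of such peaks, the 8 pairs of largest ratio, the 6 largest unpartnered promoter peaks, the 3 peaks spanning most peaks of the other list, up to 3 members per list, and PIK3CA. For the pairs, the higher peak had to be strong and its summit value the higher one. The direction of their summit change was thus set by the rule. Other genes are said to have been chosen after their values were seen. Some items that the rule names are not reported here.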

Additional observations from a re-analysis of the deposited data

How the results depend on the processing

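No paired analysis was possible because each genotype has 1 merged list, and for the same reason leaving out a sample could not be run. Of 40 recomputed main values 21 stayed within 1.5 times or the spread and 19 moved. Most of these values are counts, which cannot change sign. Only the medians of width ratio and summit difference could change direction, and they did not. Reducing both lists to equal length gave 13076 and 13196 peaks without a partner (E545K, H1047R) and 302 and 324 strong ones. It gave 337 promoters in E545K only and 216 in H1047R only, so the order of the promoter counts turned. A minimum area of 400 left 4756 E545K peaks without a partner. Strength by area alone gave 717 and 1531 strong ones, and the upper 25% gave 10 and 21. Pairs higher in E545K and in H1047R numbered 1386 and 7171 without centring, 5376 and 5591 by percentile ranks, and 926 and 1728 by mean height. The median log2 width ratio was 0.0153 where both peaks were strong and 0.0276 at promoters, where the median summit difference was 0.48.

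Values that changed direction were few. The net of peaks for the FOXO list was 20 with all unpartnered peaks (-1 with strong ones), that of integrins -8 by area alone (3) and that of housekeeping genes -3 (1). The log2 ratio of GATA shares in unpartnered E545K peaks was -0.25 by area alone (0.84). For CEBP, whole peaks gave -0.0562 in unpartnered H1047R peaks (0.36) and 0.0300 in pairs higher in E545K (-0.47). The cause was not tested. Summing over merged regions, an alternative chosen after seeing the data, changed the direction of none of the 23 list medians of promoters. The early response median was -0.38 (-0.45) and that of basal and myoepithelial genes -0.34 (-0.42). Unknown depth limits every count of peaks present in 1 list only.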
